A study of Mus musculus with 9 samples.

Results

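The genes described here are 47 genes of DNA replication, taken by symbol from 23849 gene entries measured by RNA-seq in mouse CD4+ T cells. They are 12 genes of origin licensing, 8 of origin firing, 9 polymerase and primase subunits, 9 genes of the sliding clamp, its loader and the single-strand binding protein RPA, 2 of Okazaki fragment processing, 5 of nucleotide supply and 2 of chromatin assembly. The cells were naive CD4+ T cells, sorted as naive by surface markers that include low CD44, and then stimulated for 24 h through CD3 and CD28. The study compared Fosl2 Tg mice, which overexpress Fosl2, mice labelled Fosl2 Ko (genotype Fosl2fl/fl CD4-cre+) and wild-type controls (wt), with 3 libraries each. CD4-cre is active in the T cell lineage, and the promoter that drives the Fosl2 transgene is not given in the labels. No age is given. Whether each library comes from its own animal is not stated in the labels, so p-values here cover the spread among libraries, and that spread may be technical.

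DNA replication starts at origins. The origin recognition complex, with Cdc6 and Cdt1, loads the MCM helicase onto DNA in G1, and the kinases Cdc7-Dbf4 and CDK then recruit Cdc45 and the GINS complex to activate it. Polymerase alpha-primase lays the primers, polymerases epsilon and delta extend them with the clamp Pcna, and Fen1 and Lig1 join the Okazaki fragments. A resting T cell holds few of these transcripts, and stimulation through CD3 and CD28 raises them as the cell leaves quiescence and enters S phase. Many of these genes are textbook targets of E2F transcription factors.

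Levels are given as FPKM (fragments divided by transcript length and by the number of fragments mapped), always for libraries 1, 2 and 3 of a group in that order. The fragments mapped per library were estimated in M (M stands for 10 to the power of 6). The estimates were 39.5 to 57 M in Fosl2 Tg, 32 to 57.5 M in the libraries labelled Fosl2 Ko and 45 to 50.5 M in Control. From these, the member with the fewest fragments, Gins3, had an estimated 285 in its lowest library. Changes are differences in log2(FPKM + 1) with the standard error (SE) from limma, and a gene is called when its limma p-value, adjusted over all 10340 genes tested, is below 0.05. All 47 members passed the filter for testing, a mean of at least 1 FPKM over the 9 libraries, and each was above 1 in every library.

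Fosl2, the AP-1 family gene altered in the mice (chromosome 5, 32136472 to 32157839, mm10), had 30.9, 19.2 and 24.5 FPKM in Fosl2 Tg, 19.2, 17.8 and 17.1 FPKM in the libraries labelled Fosl2 Ko and 7.77, 7.44 and 6.15 FPKM in Control. It was higher than Control in both groups, by 1.65 ± 0.15 in Fosl2 Tg (log2, SE, limma adjusted p = 0.000749) and by 1.23 ± 0.15 in those labelled Fosl2 Ko (limma adjusted p = 0.00404). Its level therefore goes against the Ko label. A gene-level FPKM carries no exon detail, so this value does not check a deletion of part of the gene. Cd4, which marks the sorted cells, had 164, 171 and 162 FPKM in Fosl2 Tg, 197, 187 and 197 FPKM in the libraries labelled Fosl2 Ko and 184, 186 and 165 FPKM in Control, and was called in neither group against Control (limma adjusted p = 0.206 in Fosl2 Tg and 0.325 in those labelled Fosl2 Ko). Against the Ko-labelled group, Cd4 was called lower in Fosl2 Tg (-0.22 ± 0.06, limma adjusted p = 0.0206).

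The 250 bases before the annotated start are printed for 4 members, as examples with and without E2F-type words. Sequences are from RefSeq (GRCm38.p6, which is mm10), 5′ to 3′ on the gene's own strand. Capitals mark E2F-type words, that is TTTGGCGC, TTTCCCGC, TTTGCCGC or TTTCGCGC on either strand. In the longer windows described below, which add 50 bases after the start, only 14 of 46 member windows held such a word. Mcm6 (chr1:128359706-128359955, minus strand) has 3 such words, whose first bases lie 110, 106 and 47 bases before the start, and the first 2 overlap. Mcm5 (chr8:75109259-75109508, plus strand) has 2 overlapping words, at 153 and 149 bases before the start. Orc1 (chr4:108579204-108579453, plus strand) has 1, at 27 bases. Rrm2 (chr12:24708004-24708253, plus strand), the member with the largest difference between Fosl2 Tg and Control, has none in this window.
Mcm6: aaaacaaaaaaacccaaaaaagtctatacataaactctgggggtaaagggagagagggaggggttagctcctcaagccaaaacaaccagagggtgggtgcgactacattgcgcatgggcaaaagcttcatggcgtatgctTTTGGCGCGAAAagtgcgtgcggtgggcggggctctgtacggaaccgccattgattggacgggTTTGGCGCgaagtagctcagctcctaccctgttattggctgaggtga
Mcm5: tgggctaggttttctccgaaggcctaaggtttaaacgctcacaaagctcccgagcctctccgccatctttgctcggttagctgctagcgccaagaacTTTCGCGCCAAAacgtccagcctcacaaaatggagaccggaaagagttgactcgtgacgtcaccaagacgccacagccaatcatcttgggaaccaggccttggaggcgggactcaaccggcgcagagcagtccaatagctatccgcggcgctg
Orc1: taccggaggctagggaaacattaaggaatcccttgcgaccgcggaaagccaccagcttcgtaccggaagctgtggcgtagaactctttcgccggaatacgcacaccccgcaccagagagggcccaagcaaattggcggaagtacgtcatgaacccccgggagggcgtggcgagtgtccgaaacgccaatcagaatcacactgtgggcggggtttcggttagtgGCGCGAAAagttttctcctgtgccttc
Rrm2: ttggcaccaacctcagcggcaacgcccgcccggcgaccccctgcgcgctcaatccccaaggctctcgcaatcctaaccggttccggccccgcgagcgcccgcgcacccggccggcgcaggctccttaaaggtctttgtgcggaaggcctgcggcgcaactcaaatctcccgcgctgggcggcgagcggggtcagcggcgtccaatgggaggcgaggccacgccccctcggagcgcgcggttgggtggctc

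Of the 47 members, 39 matched the RefSeq promoter table, with 46 windows of 300 bases (250 before and 50 after the start). Gins1, Gins2, Gins4, Gmnn, Mcm4, Pole, Prim2 and Rfc2 were not matched. An E2F-type word stood in 14 of the 46 windows, 30.4%, against 4.37% of the windows of all genes tested and 2.26% of all promoters in the table. These 14 windows belong to Cdc6, Cdt1, Gins3, Lig1, Mcm3, Mcm5, Mcm6, Mcm7, Orc1, Pola1, Pold1, Pold3, Pole2 and Rfc3. The CCAAT box (CCAAT on either strand) was in 54.3% of member windows, against 38.4% for all genes tested and 37.4% of all promoters. The CHR word found in cell cycle promoters (TTTGAA or TTTAAA, either strand) was in 26.1%. This was above the 18.9% for all genes tested and below the 27.6% of all promoters. The AP-1 word, TGAGTCA, which reads TGACTCA on the other strand, is the site that Fosl2 and its relatives bind. It was in 1 member window (2.17%, Pold3), against 3.22% for all genes tested and 5.2% of all promoters. Median GC content was 61.3% in member windows and 61.0% over all genes tested. Members with an E2F-type word had a median change between Fosl2 Tg and Control of -0.52 (range -0.87 to -0.37, n = 14), and those without had -0.56 (range -1.09 to -0.22, n = 25). The medians differed by less than the range of either set, and the range without a word was the wider. These shares are descriptions of fixed letters in fixed windows, with no test.

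**Figure D1:**
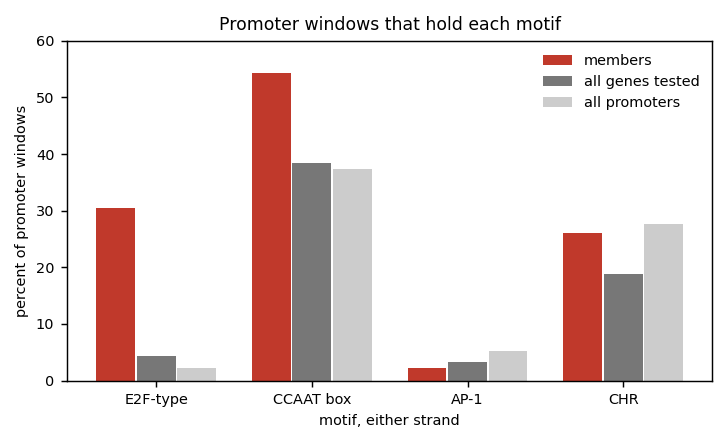
Percent of promoter windows (vertical axis) that hold each of 4 motifs on either strand, for the replication genes, for all genes tested and for all promoters in the RefSeq table. The E2F-type words stand out, at 30.4% of the 46 member windows against 4.37% for all genes tested, while the AP-1 word was at 2.17% against 3.22%.

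Replication genes were lower in Fosl2 Tg than in Control across every role. All 47 had a negative change, and 36 passed the test, all of them lower (76.6%). Over all genes tested, 15.1% were called lower and 8.53% higher in this comparison. The median change of the members was -0.53 (range -1.09 to -0.22), against -0.03 over all genes tested. In mean FPKM the members were 14.2% to 53.1% lower in Fosl2 Tg, with a median of 31.8%. For each of the 47, all 3 Fosl2 Tg libraries lay below all 3 Control libraries, a separation that 27.1% of all genes tested showed in this direction. The 11 members that were not called, Orc2, Mcm2, Mcm4, Gins1, Pola1, Prim1, Pole2, Pold3, Rfc1, Rfc3 and Rpa3, had limma adjusted p-values from 0.0505 to 0.0821, just outside the threshold. In RNA from bulk cells, fewer cells in a replicating state and less of these RNAs per cell cannot be told apart.

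The number of calls depended on single libraries, while the direction did not. Leaving out Control library 2 left 6 members called lower (Cdc45, Chaf1a, Dbf4, Mcm10, Rrm2 and Tyms), and leaving out Control library 3 left 7 (the same 6 and Rfc5). Calls lower over all genes tested dropped too, from 1558 to 558 without Control library 2 and to 730 without Control library 3. All 47 changes of the members stayed negative in these fits. Without a library labelled Fosl2 Ko, which only enters through the shared estimate of the spread, 22 (without library 3) to 25 (without library 1) members were called. Over all genes tested, 968 and 1081 were called lower in these 2 fits. Without Fosl2 Tg library 1, the median change was -0.36 and 34 members were called, beside 1294 of all genes called lower. Over all genes, 36.1% of the calls between Fosl2 Tg and Control were higher in Fosl2 Tg. After median-of-ratios scaling this share was 46.5% (1100 higher, 1265 lower), and 33 replication genes were then called, all lower.

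**Figure D2:**
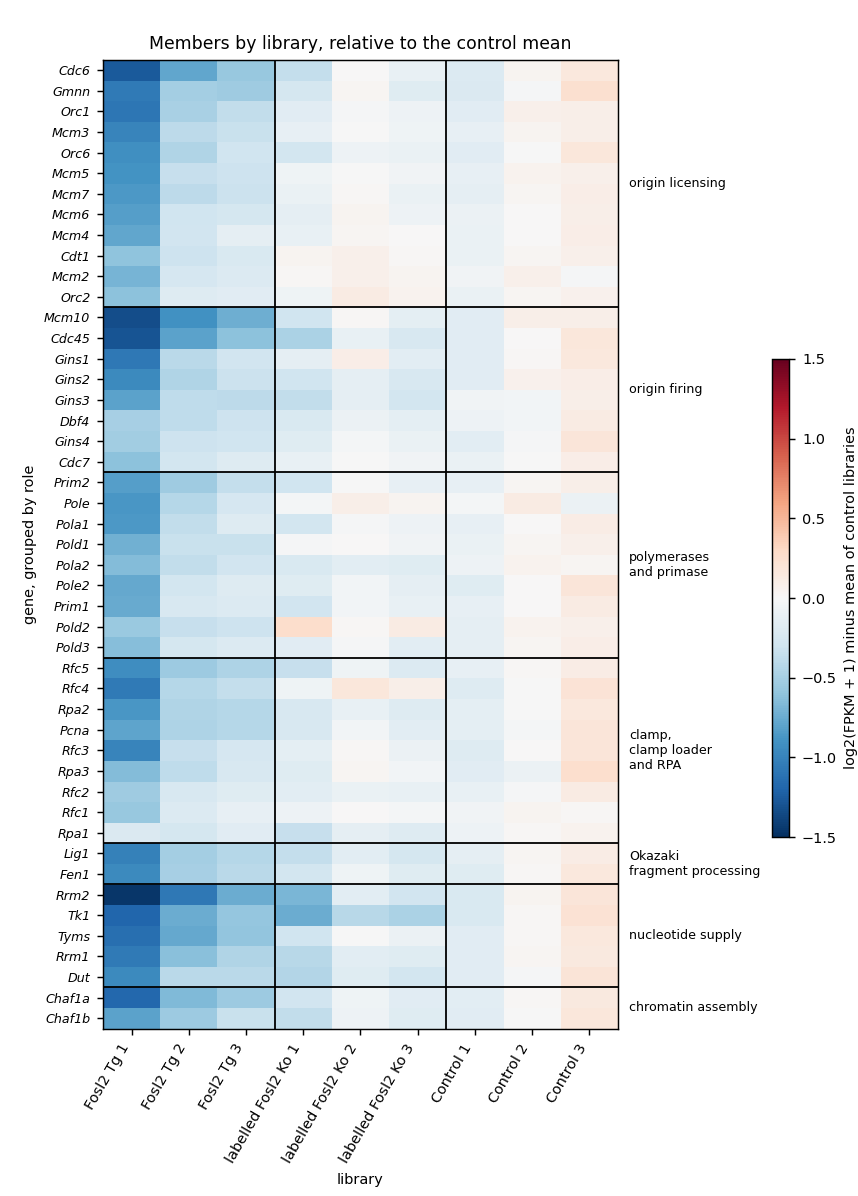
Each of the 47 genes (rows, by role) in each library (columns), as the difference in log2(FPKM + 1) from the Control mean. The 3 Fosl2 Tg columns lie below the Control mean for every gene, Fosl2 Tg library 1 lowest for 46 of them, and the columns of the libraries labelled Fosl2 Ko have medians of -0.23, -0.02 and -0.11.

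Of the 12 licensing genes, 9 were called lower in Fosl2 Tg and none higher, with a median change of -0.52. Cdc6, the ATPase that works with the origin recognition complex to load the helicase (chromosome 11, 98907889 to 98923942), had 7.17, 10.4 and 12.2 FPKM in Fosl2 Tg, 14.4, 18.7 and 17.2 FPKM in the libraries labelled Fosl2 Ko and 16.1, 19.3 and 20.9 FPKM in Control. It fell by 0.87 ± 0.18 in Fosl2 Tg (log2, SE, limma adjusted p = 0.013), the largest change of the group, and its highest Fosl2 Tg library was below every other library of the study. Gmnn, the geminin gene, whose protein blocks Cdt1 after origins have fired (chromosome 13, 24751845 to 24761937), had 30.9, 45.8 and 44.8 FPKM in Fosl2 Tg, 54.2, 66.8 and 57.5 FPKM in the libraries labelled Fosl2 Ko and 56.2, 64.4 and 77.2 FPKM in Control. It fell by 0.70 ± 0.17 (limma adjusted p = 0.0236). Cdt1, the loading factor that geminin blocks (chromosome 8, 122568015 to 122573130), changed less: it had 40.1, 49.4 and 52.3 FPKM in Fosl2 Tg, 63.0, 64.9 and 61.9 FPKM in the libraries labelled Fosl2 Ko and 57.0, 62.5 and 64.7 FPKM in Control (-0.38 ± 0.09, limma adjusted p = 0.0269).

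Among subunits of the origin recognition complex, Orc6 had 24.8, 34.7 and 38.7 FPKM in Fosl2 Tg, 39.4, 45.2 and 44.7 FPKM in the libraries labelled Fosl2 Ko and 42.4, 47.5 and 54.1 FPKM in Control (-0.56 ± 0.16, limma adjusted p = 0.0375). Orc1 also fell (-0.65 ± 0.17, limma adjusted p = 0.0308). Orc2 had the smallest change of the licensing genes and was not called: 22.5, 30.5 and 31.1 FPKM in Fosl2 Tg, 33.6, 38.2 and 36.4 FPKM in the libraries labelled Fosl2 Ko and 32.7, 36.0 and 36.8 FPKM in Control (-0.33 ± 0.12, limma adjusted p = 0.0718). Outside the 47, the subunits Orc3, Orc4 and Orc5 gave changes of 0.01, 0.01 and -0.06 and were not called.

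The 6 subunits of the MCM helicase ring were the most abundant members after Pcna in Control, with mean levels of 136 to 252 FPKM. Mcm7 (chromosome 5, 138164589 to 138171862) had 113, 157 and 164 FPKM in Fosl2 Tg, 192, 209 and 192 FPKM in the libraries labelled Fosl2 Ko and 187, 210 and 221 FPKM in Control, and fell by 0.52 ± 0.14 (log2, SE, limma adjusted p = 0.0294). Mcm3 (-0.58), Mcm5 (-0.52) and Mcm6 (-0.46) fell as well, whereas Mcm2 (-0.38 ± 0.12, limma adjusted p = 0.0505) and Mcm4 (-0.40 ± 0.15, limma adjusted p = 0.0821) missed the threshold. Of the summed FPKM of the 6, Mcm6 made up 21.2% to 22.3% over the 9 libraries, Mcm7 17.1% to 18.1% and Mcm5 14.7% to 15.5%. The shares of the other 3 did not overlap between Fosl2 Tg and Control, though they differed by few percentage points. Mcm2 made up 12.3% to 13.1% in Fosl2 Tg and 11% to 12.1% in Control, and Mcm4 14.2% to 15.1% in Fosl2 Tg and 13.5% to 13.9% in Control. Mcm3 had the lower share in Fosl2 Tg, at 17.9% to 18.9%, against 19.5% to 19.9% in Control.

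Of the 8 firing genes, 7 were called lower in Fosl2 Tg and none higher, with a median change of -0.55. Mcm10, which helps to activate the loaded helicase (chromosome 2, 4990724 to 5012791), had the smallest adjusted p of all members. It had 9.83, 13.6 and 15.5 FPKM in Fosl2 Tg, 21.2, 26.6 and 23.6 FPKM in the libraries labelled Fosl2 Ko and 23.3, 27.9 and 27.9 FPKM in Control. The mean was 50.9% lower in Fosl2 Tg (-0.99 ± 0.15, limma adjusted p = 0.00477), and the Fosl2 Tg libraries lay below all 6 others. Cdc45, part of the active helicase with MCM and GINS (chromosome 16, 18780447 to 18811972), had 17.2, 24.5 and 28.0 FPKM in Fosl2 Tg, 31.2, 40.3 and 36.6 FPKM in the libraries labelled Fosl2 Ko and 38.7, 43.7 and 49.0 FPKM in Control (-0.91 ± 0.17, limma adjusted p = 0.0102).

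The kinase Cdc7 and its activating subunit Dbf4, which phosphorylate MCM to start firing, changed by less. Dbf4 had 17.3, 18.7 and 19.8 FPKM in Fosl2 Tg, 21.0, 23.2 and 22.3 FPKM in the libraries labelled Fosl2 Ko and 23.5, 24.0 and 27.0 FPKM in Control (-0.40 ± 0.07, limma adjusted p = 0.00759). Its libraries were close together within groups, which gives it one of the smallest SEs of the members. Cdc7 had 12.5, 16.0 and 17.0 FPKM in Fosl2 Tg, 18.1, 19.6 and 18.9 FPKM in the libraries labelled Fosl2 Ko and 18.4, 19.6 and 21.1 FPKM in Control (-0.36 ± 0.10, limma adjusted p = 0.0397). Gins3, a GINS subunit and the member with the lowest level, had 4.56, 6.45 and 6.4 FPKM in Fosl2 Tg, 6.51, 7.83 and 7.06 FPKM in the libraries labelled Fosl2 Ko and 8.42, 8.48 and 9.31 FPKM in Control (-0.53 ± 0.12, limma adjusted p = 0.0171). The partner subunits Gins2 (-0.58) and Gins4 (-0.37) also fell, and Gins1 (-0.59 ± 0.19, limma adjusted p = 0.057) missed the threshold with a larger SE.

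Polymerase and primase genes had the smallest median change of the roles, -0.44. All 9 changes were negative, and 5 of the 9 were called lower. Prim2, the large primase subunit (chromosome 1, 33453811 to 33669758), had 17.5, 21.7 and 24.6 FPKM in Fosl2 Tg, 25.7, 31.9 and 29.2 FPKM in the libraries labelled Fosl2 Ko and 29.3, 32.6 and 34.1 FPKM in Control (-0.58 ± 0.12, limma adjusted p = 0.0159). Pola2, the regulatory subunit of polymerase alpha, had 28.3, 34.6 and 36.8 FPKM in Fosl2 Tg, 38.2, 40.4 and 39.8 FPKM in the libraries labelled Fosl2 Ko and 42.5, 46.8 and 46.0 FPKM in Control (-0.44 ± 0.09, limma adjusted p = 0.0137). For both genes the highest Fosl2 Tg library was below the lowest library of either other group.

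Pold1, the catalytic subunit of polymerase delta (chromosome 7, 44532744 to 44548815), had 37.2, 48.8 and 48.9 FPKM in Fosl2 Tg, 61.2, 62.0 and 59.8 FPKM in the libraries labelled Fosl2 Ko and 57.7, 63.0 and 65.1 FPKM in Control (-0.46 ± 0.10, limma adjusted p = 0.0173). Pold2, its accessory subunit, had 39.8, 46.4 and 47.6 FPKM in Fosl2 Tg, 71.3, 59.6 and 64.2 FPKM in the libraries labelled Fosl2 Ko and 53.8, 61.3 and 62.6 FPKM in Control (-0.40 ± 0.09, limma adjusted p = 0.0215). It was the only member whose highest library was library 1 of the group labelled Fosl2 Ko. Pold3, another accessory subunit, had 22.3, 29.2 and 30.4 FPKM in Fosl2 Tg, 31.1, 34.8 and 31.5 FPKM in the libraries labelled Fosl2 Ko and 32, 36.1 and 37.8 FPKM in Control, and was not called (-0.37 ± 0.12, limma adjusted p = 0.0509). Pole, the catalytic subunit of the leading-strand polymerase, fell (-0.52), and its partner Pole2 (-0.41 ± 0.15, limma adjusted p = 0.0769), the polymerase alpha subunit Pola1 (-0.47 ± 0.16, limma adjusted p = 0.0628) and the catalytic primase Prim1 (-0.40 ± 0.15, limma adjusted p = 0.0789) were not called.

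Of the 9 genes of the clamp, clamp loader and RPA, 6 were called lower in Fosl2 Tg and none higher, with a median change of -0.53. Pcna, the sliding clamp and the most abundant member (chromosome 2, 132249286 to 132253180), had 337, 424 and 434 FPKM in Fosl2 Tg, 492, 569 and 524 FPKM in the libraries labelled Fosl2 Ko and 525, 571 and 663 FPKM in Control. It fell by 0.56 ± 0.12 (log2, SE, limma adjusted p = 0.0161). Rfc5, a subunit of the loader that opens the clamp, had 25.1, 33.2 and 35.2 FPKM in Fosl2 Tg, 38.1, 46.6 and 42.0 FPKM in the libraries labelled Fosl2 Ko and 44.6, 49.3 and 52.7 FPKM in Control (-0.64 ± 0.13, limma adjusted p = 0.0123). Its fellow loader subunits Rfc4 (-0.61) and Rfc2 (-0.32) fell, and Rfc3 (-0.53 ± 0.18, limma adjusted p = 0.0681) and Rfc1 (-0.30 ± 0.10, limma adjusted p = 0.0667) were not called.

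The subunits of RPA, which coats single-stranded DNA at the fork, gave unequal values. Rpa2 had 37.4, 50.3 and 51.3 FPKM in Fosl2 Tg, 58.5, 63.7 and 60.4 FPKM in the libraries labelled Fosl2 Ko and 62.5, 68.7 and 77.0 FPKM in Control (-0.58 ± 0.12, limma adjusted p = 0.0149). Rpa1, the large subunit (chromosome 11, 75300259 to 75348383), had 77.3, 74.6 and 80 FPKM in Fosl2 Tg, 70.9, 81.9 and 78.9 FPKM in the libraries labelled Fosl2 Ko and 85.4, 91.3 and 93.6 FPKM in Control. It had the smallest change of the 47 members (-0.22 ± 0.06, limma adjusted p = 0.0436). Rpa1 was also the only member without a negative difference between Fosl2 Tg and the Ko-labelled group, at 0.00 (95% interval -0.15 to 0.15). Rpa3 was not called (-0.43 ± 0.13, limma adjusted p = 0.0506).

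Both genes of Okazaki fragment processing fell. Fen1, the flap nuclease that trims the fragments (chromosome 19, 10199132 to 10203943), had 39.2, 54.3 and 58.1 FPKM in Fosl2 Tg, 63.7, 73.8 and 68.0 FPKM in the libraries labelled Fosl2 Ko and 68.2, 77.9 and 86.4 FPKM in Control (-0.62 ± 0.15, limma adjusted p = 0.0224). Lig1, the ligase that seals them (chromosome 7, 13277313 to 13311427), had 42.5, 60.4 and 64.3 FPKM in Fosl2 Tg, 67.5, 77.2 and 72.1 FPKM in the libraries labelled Fosl2 Ko and 78.7, 88.1 and 93.7 FPKM in Control (-0.65 ± 0.15, limma adjusted p = 0.0181).

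The 5 genes of nucleotide supply all fell in Fosl2 Tg, and their median change, -0.83, was the largest of the roles. Rrm2, the small subunit of ribonucleotide reductase, which makes deoxynucleotides in S phase (chromosome 12, 24708254 to 24714146), had 33.8, 44.4 and 56.1 FPKM in Fosl2 Tg, 58.6, 84.8 and 77.4 FPKM in the libraries labelled Fosl2 Ko and 80.7, 97.7 and 108 FPKM in Control. Its mean was 53.1% lower in Fosl2 Tg than in Control (-1.09 ± 0.20, limma adjusted p = 0.00918). Rrm1, the large subunit of the same enzyme, fell by less, with 41.5, 56.4 and 63.6 FPKM in Fosl2 Tg, 65.3, 78.3 and 76.7 FPKM in the libraries labelled Fosl2 Ko and 77.6, 89.2 and 96.5 FPKM in Control (-0.71 ± 0.15, limma adjusted p = 0.0162).

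Tyms, thymidylate synthase, had 6.94, 9.26 and 10.6 FPKM in Fosl2 Tg, 13.1, 16.4 and 15.5 FPKM in the libraries labelled Fosl2 Ko and 14.5, 16.6 and 18.4 FPKM in Control (-0.83 ± 0.15, limma adjusted p = 0.0081). Tk1, the thymidine kinase of the salvage route (chromosome 11, 117815519 to 117826014), had 16.1, 22.3 and 25.1 FPKM in Fosl2 Tg, 22.3, 28.4 and 27.2 FPKM in the libraries labelled Fosl2 Ko and 32.3, 38.5 and 44.3 FPKM in Control (-0.84 ± 0.17, limma adjusted p = 0.0135). Here the Fosl2 Tg libraries overlapped with those labelled Fosl2 Ko, and both groups lay wholly below Control. Dut, the dUTPase that keeps uracil out of DNA, had 36.2, 53.3 and 53.3 FPKM in Fosl2 Tg, 52.1, 62.7 and 58.3 FPKM in the libraries labelled Fosl2 Ko and 63.0, 70.1 and 81.1 FPKM in Control (-0.59 ± 0.16, limma adjusted p = 0.0333).

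Chaf1a and Chaf1b, which encode subunits of chromatin assembly factor 1, fell. This factor places histones on new DNA. Chaf1a (chromosome 17, 56040416 to 56068026) had 17.5, 25.6 and 27.7 FPKM in Fosl2 Tg, 33.3, 39.2 and 36.2 FPKM in the libraries labelled Fosl2 Ko and 36.6, 41.5 and 45.3 FPKM in Control (-0.80 ± 0.16, limma adjusted p = 0.0119). Chaf1b (chromosome 16, 93883901 to 93906106) had 15.6, 18.9 and 21.9 FPKM in Fosl2 Tg, 21.4, 26.3 and 24.5 FPKM in the libraries labelled Fosl2 Ko and 24.7, 27.8 and 31.6 FPKM in Control (-0.56 ± 0.13, limma adjusted p = 0.0232).

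**Figure D3:**
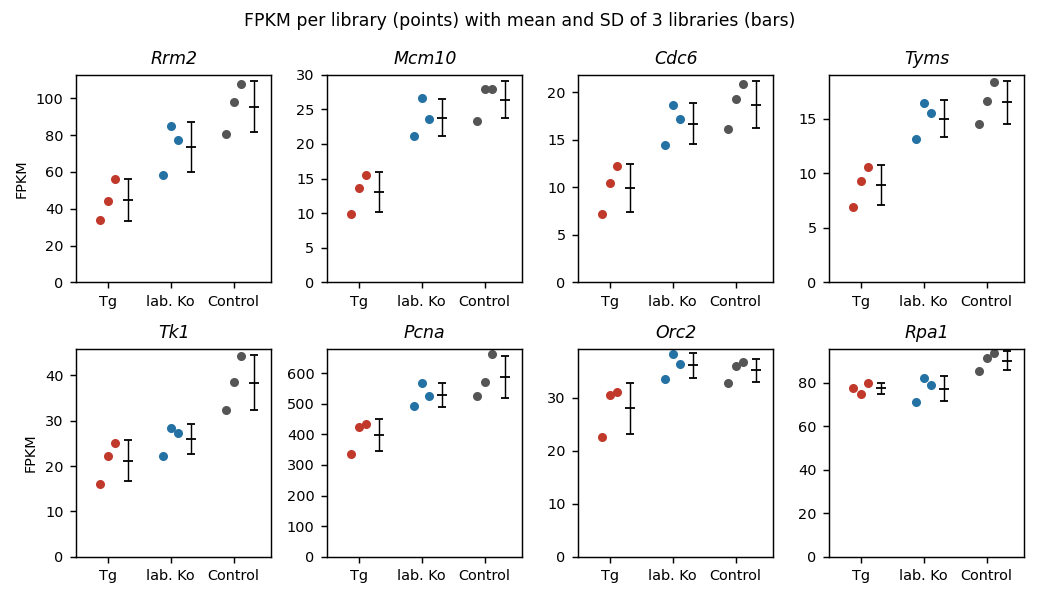
FPKM of 8 members in each library (points), with the mean and SD of 3 libraries (bars), for Fosl2 Tg, the libraries labelled Fosl2 Ko (lab. Ko) and Control. The Fosl2 Tg points of each gene lie below its Control points, as with Rrm2 at 33.8 to 56.1 FPKM against 80.7 to 108 FPKM.

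Replication genes had a median change of -0.13 in the libraries labelled Fosl2 Ko, and none was called. Limma called 0 of 47 in either direction, against 2.32% of all genes tested called lower and 2.14% called higher. With a weight per library in limma, 24 of the 47 were called lower, beside 3209 lower and 2104 higher over all genes tested. Only Tk1 and Rpa1 had an unadjusted limma p below 0.05, and the lowest adjusted p was 0.109 (Rpa1). The mean level was below that of Control for 41 members, and the changes ranged from -0.54 to 0.13, while the median over all genes was -0.01. The median of the members was -0.20 without Control library 1, -0.06 without Control library 3 and -0.07 without library 1 of the Ko-labelled group. All 3 libraries labelled Fosl2 Ko lay below all 3 Control libraries for 7 members, Tk1, Rpa1, Gins3, Dbf4, Pola2, Dut and Lig1 (14.9%), which is less than the 19% of all genes tested that did so. A missed threshold does not show that levels were equal: over the 47 members the 95% intervals of the change ran from -0.94 at the lowest to 0.48 at the highest.

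Nucleotide supply had the lowest median in this comparison as well, at -0.30, and licensing the highest, at -0.06. Tk1 had the largest change, -0.54 ± 0.17 (log2, SE, limma adjusted p = 0.138, 95% interval -0.94 to -0.14), with all 3 libraries labelled Fosl2 Ko below Control. Rrm2 came next at -0.38 ± 0.20 (limma adjusted p = 0.368). At the other end, Pold2 had a change of 0.13 ± 0.09 (limma adjusted p = 0.506). For the MCM subunits the changes lay between -0.06 and 0.05, with the interval of Mcm6 running from -0.38 to 0.26. Without Fosl2 Tg library 1, which enters this comparison only through the shared spread, Gins3, Pola2 and Tk1 were called lower. Calls lower over all genes tested rose too in that fit, from 240 to 736. Both comparisons against Control, that of Fosl2 Tg and this one, share the same 3 Control libraries.

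Set directly against the libraries labelled Fosl2 Ko, Fosl2 Tg again had the lower levels. Of the 47 members, 26 were called lower in Fosl2 Tg (55.3%) and 0 higher, against 20.7% of all genes tested called lower and 17.4% called higher. In the other direction limma gave no member an unadjusted p below 0.05. Changes were negative for 46 members, all but Rpa1, with a median of -0.41. The groups did not overlap for 41 members, against 33.4% of all genes tested with Fosl2 Tg below. Licensing had 9 of 12 members called, firing 4 of 8, polymerases and primase 4 of 9, the clamp, loader and RPA group 4 of 9, Okazaki fragment processing 1 of 2, nucleotide supply 3 of 5 and chromatin assembly 1 of 2.

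The largest of these differences were those of Mcm10 (-0.84 ± 0.15, SE, limma adjusted p = 0.00498), Cdc6 (-0.72 ± 0.18, limma adjusted p = 0.0163), Rrm2 (-0.72 ± 0.20, limma adjusted p = 0.0254) and Tyms (-0.70 ± 0.15, limma adjusted p = 0.00886). Pold2 had the smallest adjusted p (-0.53 ± 0.09, limma adjusted p = 0.00425). For Cdt1 the difference was -0.42 ± 0.09 (limma adjusted p = 0.0113). Tk1 and Dut, by contrast, were not called here, with differences of -0.30 ± 0.17 (limma adjusted p = 0.199) and -0.29 ± 0.16 (limma adjusted p = 0.174). Without library 2 or without library 3 of the group labelled Fosl2 Ko only 5 members were called in each case, and without library 1 of that group 15. Without Control library 2 the count was 16, and without Fosl2 Tg library 1 it was 19, with a median of -0.26. Calls lower over all genes tested dropped too, from 2142 with all 9 libraries. They were 1378, 1099 and 1221 without library 1, 2 or 3 of the group labelled Fosl2 Ko. Without Control library 2 they were 1788, and without Fosl2 Tg library 1 they were 1836.

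**Figure D4:**
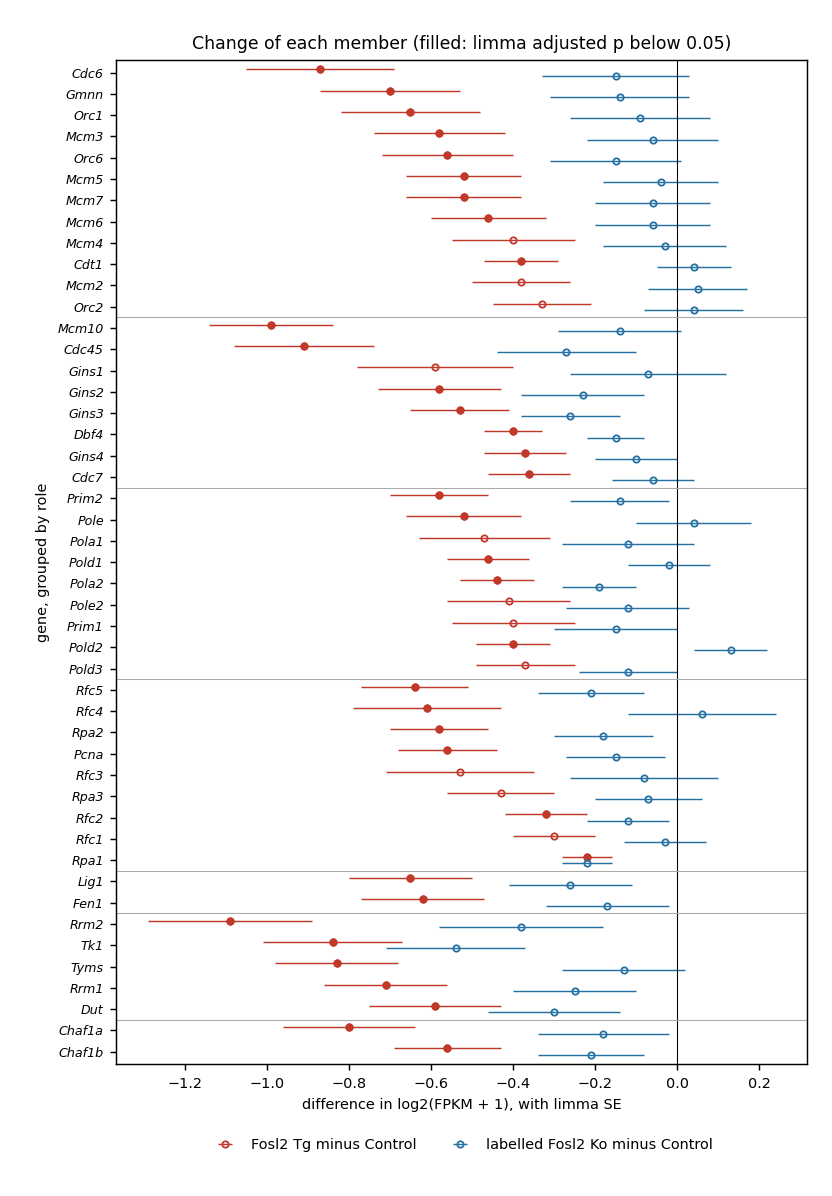
Difference in log2(FPKM + 1) with its limma SE (horizontal axis) for each of the 47 genes, for Fosl2 Tg minus Control and for the libraries labelled Fosl2 Ko minus Control. Filled points are called, and the Fosl2 Tg differences run from -1.09 to -0.22, with 36 filled, while those of the libraries labelled Fosl2 Ko run from -0.54 to 0.13, with none filled.

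**Figure D5:**
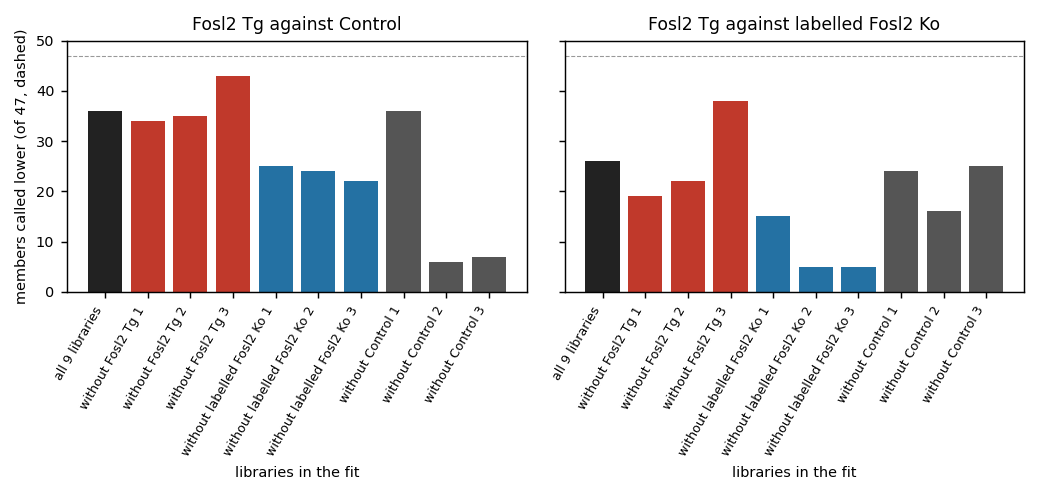
Number of the 47 genes called lower by limma (vertical axis) with all 9 libraries and with each library left out in turn, for 2 comparisons. Between Fosl2 Tg and Control the count was 36 with all libraries and 6 without Control library 2, and between Fosl2 Tg and the libraries labelled Fosl2 Ko it was 26 with all libraries and 5 without library 2 or 3 of that group. Over all genes tested, calls lower went from 1558 to 558 without Control library 2 in the first comparison. In the second they went from 2142 to 1099 without library 2 and 1221 without library 3 of the Ko-labelled group.

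Within each group the members shifted together from library to library. Fosl2 Tg library 1 was the lowest of its group for 46 of the 47 members, all but Rpa1, with a median of -0.86 from the Control mean, against -0.40 and -0.32 in libraries 2 and 3. Library 1 of the group labelled Fosl2 Ko was lowest for 42 members, with medians of -0.23, -0.02 and -0.11 over the 3 libraries. Control library 1 was lowest for 46, and Control library 3 highest for 42 (medians -0.14, 0.02 and 0.11). The median correlation between members of their deviations from the group means over the 9 libraries was 0.94, where all members share the same libraries and their depth. Rpa1 had the lowest median correlation with the others, 0.43. Neither this correlation nor the counts of lowest libraries were computed over all genes tested. They therefore do not show a trait particular to these genes. Estimated depth was lowest in library 1 of Fosl2 Tg (39.5 M fragments) and in library 1 of the group labelled Fosl2 Ko (32 M), but in Control it was 46.5 M in library 1 against 45 M in library 2. Over all genes tested, the medians from the Control mean were -0.05, -0.02 and -0.02 in Fosl2 Tg libraries 1, 2 and 3. They were -0.02, -0.01 and -0.01 in the libraries labelled Fosl2 Ko. The part of depth in the shifts of the members was not tested. The spread was widest in Fosl2 Tg, where the median coefficient of variation of the members was 20.6%, against 7.32% in the libraries labelled Fosl2 Ko and 8.74% in Control.

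Over the 47 genes, the log2 Control level and the change between Fosl2 Tg and Control had Pearson r = 0.11 and Spearman rho = 0.06, across genes measured in the same libraries. In Control the order of mean levels ran from Pcna (587 ± 69.9 FPKM), Mcm6 (252 ± 15.9) and Mcm3 (228 ± 17.5) at the top to Cdc6 (18.7 ± 2.45), Tyms (16.5 ± 1.97) and Gins3 (8.74 ± 0.497) at the bottom (SD, n = 3 each). Pcna stood clear of Mcm6 beyond their spread, whereas Mcm6 and Mcm3, and likewise Cdc6 and Tyms, differed by less than the sum of their SDs.

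The ratios of 5 sets of partner genes, chosen after their values were seen, are given as a description. In these, Cdt1 over its inhibitor Gmnn was 1.30, 1.08 and 1.17 in Fosl2 Tg, 1.16, 0.972 and 1.08 in those labelled Fosl2 Ko and 1.01, 0.969 and 0.838 in Control. Rrm2 over Rrm1 was 0.815, 0.788 and 0.883 in Fosl2 Tg, 0.898, 1.08 and 1.01 in those labelled Fosl2 Ko and 1.04, 1.09 and 1.12 in Control. Chaf1a over Chaf1b was 1.12, 1.35 and 1.27 in Fosl2 Tg, 1.56, 1.49 and 1.47 in those labelled Fosl2 Ko and 1.48, 1.49 and 1.44 in Control. For these 3 ratios the Fosl2 Tg and Control libraries did not overlap, with a two-sided exact permutation p of 0.1 (0.25 adjusted over 15 tests). That is the smallest p that 3 against 3 libraries can give, so this design cannot pass the threshold. Dbf4 over Cdc7 (exact permutation p = 0.8) and Pole over Pold1 (exact permutation p = 0.5) overlapped between Fosl2 Tg and Control.

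A wider list held 46 other replication genes, covering further polymerase and origin subunits, fork and checkpoint factors, an alternative clamp loader, nucleotide enzymes and histone chaperones. Of these, 28 (60.9%) were called lower and 0 higher in Fosl2 Tg against Control, with a median change of -0.37. The shares over all genes tested were 15.1% lower and 8.53% higher. Of the 46, 34 had an unadjusted limma p below 0.05. Counts of unadjusted p here and for the mitosis genes are given without a share over all genes. Asf1b, a histone chaperone (-0.75 ± 0.12, limma adjusted p = 0.00591), Clspn, the checkpoint adaptor claspin (-0.91 ± 0.15, limma adjusted p = 0.00659), Chtf18, part of an alternative clamp loader (-0.73 ± 0.13, limma adjusted p = 0.00823), and Top2a, the topoisomerase that untangles replicated DNA (-0.92 ± 0.18, limma adjusted p = 0.0103), had the smallest adjusted p. Mcm9 (-0.02) and Rif1 (-0.03), chosen after their values were seen, had changes near 0. In the libraries labelled Fosl2 Ko limma called 0 of the 46 in either direction against Control (3 with an unadjusted p below 0.05). Over all genes tested, 2.32% were called lower and 2.14% higher there. Between Fosl2 Tg and the libraries labelled Fosl2 Ko, 22 (47.8%) were called lower in Fosl2 Tg and 2, Pold4 and Samhd1, higher. The shares over all genes tested were 20.7% lower and 17.4% higher.

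Mitosis genes, which act after S phase, were lower as well. Of 30 such genes, Top2a again among them, 29 (96.7%) were called lower in Fosl2 Tg against Control and none higher. Over all genes tested these shares were 15.1% and 8.53%. The median change was -0.92, against -0.53 for the replication members. Kif23 had 2.5, 3.09 and 3.36 FPKM in Fosl2 Tg, 4.97, 6.11 and 5.33 FPKM in the libraries labelled Fosl2 Ko and 5.71, 6.91 and 7.01 FPKM in Control (-0.92 ± 0.11, limma adjusted p = 0.00154). Prc1 (-0.92 ± 0.11, limma adjusted p = 0.00187) and Kif20a (-1.09 ± 0.14, limma adjusted p = 0.00217), which work with Kif23 at the central spindle, and Cdc20, an activator of the anaphase-promoting complex (-0.82 ± 0.10, limma adjusted p = 0.00194), fell as well. Pttg1, the securin gene, was the exception and was not called (0.21 ± 0.08, limma adjusted p = 0.0846). In the libraries labelled Fosl2 Ko limma called none of the 30 (10 with an unadjusted p below 0.05), with a median of -0.26. Over all genes tested, 2.32% were called lower and 2.14% higher in that comparison. The difference between the 2 lists was not tested.

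In the authors' deposited table of group comparisons, 43 of the 47 members are listed by symbol, all but Gins2, Rfc1, Rfc4 and Rpa1. All 4122 entries listed there had a q-value below 0.05 in at least 1 comparison, so the table is a selection and the counts below describe it. All 43 had a q-value below 0.05 for Fosl2 Tg against Control, each lower in Fosl2 Tg, in the authors' deposited table, against 29.1% of its entries. Limma called 36 of 47. For the libraries labelled Fosl2 Ko against Control the authors' deposited table gives 3 members with a q-value below 0.05, Tk1 (log2 -0.56), Rrm2 (-0.37) and Dut (-0.30), against 14.9% of its entries, where limma called none. Between Fosl2 Tg and the Ko-labelled group, 32 of the 43 had a q-value below 0.05 in the authors' deposited table, all lower in Fosl2 Tg, against 38.1% of its entries.

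Several T cell markers differed with genotype. Of 7 CD4 T cell markers, 4 were called higher in Fosl2 Tg than in Control, Cd28 (0.52 ± 0.05, log2, SE, limma adjusted p = 0.00107), Cd3g (0.30 ± 0.06, limma adjusted p = 0.0122), Cd3d (0.24 ± 0.06, limma adjusted p = 0.0255) and Lck (0.19 ± 0.05, limma adjusted p = 0.0361), and Cd44 was called lower. In the libraries labelled Fosl2 Ko, Cd44 was higher and Lck lower than in Control (-0.32 ± 0.05, limma adjusted p = 0.0128). Cd44 had 12, 14.3 and 13.8 FPKM in Fosl2 Tg, 26.5, 32.6 and 30.1 FPKM in the libraries labelled Fosl2 Ko and 18.4, 19.9 and 19.8 FPKM in Control. Relative to Control, Cd44 changed by -0.51 ± 0.09 in Fosl2 Tg (log2, SE, limma adjusted p = 0.00688) and by 0.59 ± 0.09 in those labelled Fosl2 Ko (limma adjusted p = 0.0087). The summed FPKM of 2 CD8 markers was 10.7 to 12.7 in Fosl2 Tg, 6.12 to 7.49 in the libraries labelled Fosl2 Ko and 11.9 to 12.8 in Control. Of these, Cd8b1 was called lower than Control in the Ko-labelled group (-0.75 ± 0.08, limma adjusted p = 0.00199), and not in Fosl2 Tg (-0.02 ± 0.08, limma adjusted p = 0.866). The NK and gamma delta T cell list (3 of 5 in the table, Ncr1 at 0) summed to 2.14 to 8.66 in Fosl2 Tg, of which 8.65 was Klrd1 in library 1, 0.353 to 0.461 in the libraries labelled Fosl2 Ko and 1.09 to 1.68 in Control. Klrd1 was not called against Control (limma adjusted p = 0.0899 in Fosl2 Tg and 0.312 in those labelled Fosl2 Ko). For the myeloid list (6 of 7 in the table, Cd14 at 0) the sums were 2.25 to 3.20 in Fosl2 Tg, 0.948 to 1.42 in the libraries labelled Fosl2 Ko and 1.53 to 1.73 in Control. Its tested gene, Cd68, was not called against Control either (limma adjusted p = 0.133 in Fosl2 Tg and 0.442 in those labelled Fosl2 Ko). Between Fosl2 Tg and the Ko-labelled group, 3 of these genes were called higher in Fosl2 Tg. They were Klrd1 (1.75 ± 0.38, limma adjusted p = 0.00952), Cd68 (0.56 ± 0.15, limma adjusted p = 0.0203) and Cd8b1 (0.73 ± 0.08, limma adjusted p = 0.000428). Of the 7 CD4 T cell markers, 4 were called higher and 2 lower in Fosl2 Tg in that comparison. B cell and red blood cell markers stayed below a mean of 1 FPKM each. The part of these markers in the replication gene differences was not tested.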

How the data were processed

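RNA was extracted with a column kit and made into directional poly-A libraries, per the labels' protocols. The submitters' processing notes name TopHat, Cufflinks and Cuffdiff, and mm10 as the build. None of the sources used here gives versions, annotation or use of strand in counting, so antisense or overlapping genes may share fragments. The authors deposited FPKM per gene and library, used as deposited (23849 entries; 1 without content was not analysed). The authors also deposited a table with FPKM per group, normalized apart from the libraries, log2 fold changes and, per the file headers, p-values with q-values, which was only described. Start positions were shifted by 1 base to count from 1.

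Depth was estimated from the steps between low FPKM values (70.8% to 76.7% of these within 0.1 of whole steps, too few to recover counts). Limma 3.58.1 (R 4.3.3), checked on simulated data, was fitted to log2(FPKM + 1) with a variance trend over all 9 libraries and no covariate (6 residual degrees of freedom). Genes with a mean of at least 1 FPKM were tested (10340), with Benjamini-Hochberg adjustment over all of them. Changes of low genes are understated on this scale. Values per library were printed by rule: per role, the 4 members with the lowest adjusted p between Fosl2 Tg and Control, the smallest change, and the 2 smallest adjusted p for the libraries labelled Fosl2 Ko. The members and lists were chosen with earlier results of these data known, so no list was tested and no p-value was computed over the members. Motifs were searched as exact words in RefSeq promoters. Alternatives were another pseudocount, other filters and scalings, only the compared groups in the fit, a replicate block, library weights and leaving out each library. A result on a marker of the sort is not reported here.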

Additional observations from a re-analysis of the deposited data

How the results depend on the processing

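Limma called no replication gene higher in any comparison under any of the 17 alternatives. Between Fosl2 Tg and Control the count called lower was 36, and it was 39 with a pseudocount of 0.1, 24 with no filter, 33 after median-of-ratios and quantile scaling, 10 with only these groups in the fit, 47 with library weights, and 6 to 43 with 1 library left out. For the libraries labelled Fosl2 Ko against Control it was 0, but 24 with library weights and 0 to 3 with 1 library left out. For Fosl2 Tg against those libraries it was 26, and it was 17 with no filter, 13 with only these groups in the fit and 5 to 38 with 1 library left out. Dropping the other group or a library lowers the residual degrees of freedom; otherwise the cause was not tested. Over all genes tested, same-numbered libraries did not deviate together (correlations -0.13 to 0.1). Of 9 libraries, 1 was closest to its own number, so the numbers are not taken as pairs. Even so, library 1 was lowest in its group for 46 of the 47 members in Fosl2 Tg. The same held for 42 in the libraries labelled Fosl2 Ko and 46 in Control. With the replicate block, 47 members were called lower between Fosl2 Tg and Control, beside 2060 of all genes tested. For the libraries labelled Fosl2 Ko against Control the block gave 1 (Tk1), beside 272. For Fosl2 Tg against those libraries it gave 43, beside 2565. For the 29 members named by rule, 79 of 493 results between Fosl2 Tg and Control lost their call, 7 gained one and 0 changed sign. Small values that changed sign against Control in the libraries labelled Fosl2 Ko were those of Pold1 (0.008 after quantile scaling, -0.0698 to 0.0167 with 1 library left out), Cdt1 (-0.0073 to 0.0822) and Orc2 (-0.0153 to 0.0839). For Rpa1, Fosl2 Tg against those libraries gave -0.0251 with library weights and -0.057 to 0.0457 with 1 library left out. Over all genes, calls between Fosl2 Tg and Control were 1558 lower and 882 higher, against 574 and 287 with only these groups, 3621 and 2370 with library weights, and 558 to 1590 and 321 to 939 with 1 library left out. Calls lower there were 1571 with a pseudocount of 0.1 and 1338 with no filter. After median-of-ratios and quantile scaling they were 1265 and 1271. Calls for the libraries labelled Fosl2 Ko were 240 lower and 221 higher, against 521 and 367 with only these groups, 3209 and 2104 with library weights, and 75 to 736 and 97 to 497 with 1 library left out; 353 were higher with no filter and 115 with a mean of at least 5 FPKM. For Fosl2 Tg against those libraries they were 2142 lower and 1801 higher, against 3215 lower with library weights, and 1099 to 2229 and 1071 to 1871 with 1 library left out. Calls lower in this comparison were 2378 with no filter and 1791 with only these groups in the fit. There were 3 libraries a group and an estimated 285 fragments or more per member and library. Whether counting or the spread between libraries limits precision more was not tested.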
